A study of Saccharomyces cerevisiae with 18 samples.

Results

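Yeast that lacks HAC1 and produces α-amylase (dA, 3 arrays titled dHA) was compared with yeast that lacks HAC1 and carries the empty vector (dN, 3 arrays titled dHN). The arrays were chosen by their titles and are 6 of the 18 in the series. Both strains descend from the laboratory strain CEN.PK 113-5D, which is MAT a and carries a mutant ura3 gene, and both carry hac1::kanMX. The dA strain holds p426-YapAmy, in which the α-amylase gene of Saccharomyces kluyveri follows a synthetic secretion leader and a constitutive glycolytic promoter on a multicopy URA3 plasmid. The dN strain holds p426GPD, the same plasmid with no insert. The label of dN replicate 1, whose title has no number, calls the plasmid p426, spells the deletion kanMN and leaves out CEN.PK. A further 3 strains are used for comparison and were grown in the same way. These are WN and WA, with HAC1 intact and the empty or the α-amylase plasmid, and dI, with hac1::kanMX and the plasmid p426-YapIns for insulin precursor. Each array came from its own bioreactor culture sampled in exponential growth on glucose with amino acids supplied, so culture is the replicate, and the labels do not say how many transformants each strain stands for. The α-amylase transcript itself has no probe here.

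The unfolded protein response of yeast runs through HAC1, whose product is a transcription factor. When unfolded protein builds up in the endoplasmic reticulum (ER), the sensor Ire1 splices HAC1 mRNA, and Hac1 then raises the genes for ER chaperones, disulfide enzymes and vesicle transport. Cells without HAC1 meet a secretory load without that program. Other programs that yeast is known to use under load are the heat shock factor Hsf1, which raises cytosolic and mitochondrial chaperones, and Msn2 and Msn4, which raise storage carbohydrate and general stress genes. Gcn4 raises amino acid synthesis when amino acids run short.

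HAC1 was at background in all 6 arrays. Its log2 signal was 1.41, 1.18 and 1.35 in dN and 1.6, 1.75 and 1.08 in dA, under a background level of 4.38 to 4.63 in these arrays, against a mean of 10.63 in WN. The background level is the 95th percentile of the 5430 probe sets on the same array that match none of the tested genes. MFA1, a pheromone gene of MAT a cells, lay between 8.50 and 8.93 in the 6 arrays, and MF(ALPHA)2, a pheromone gene of the opposite mating type, between 1.64 and 2.0. The a-specific markers STE2, BAR1, STE6 and AGA2 lay between 6.72 and 9.91 in these arrays. Of the 4 α-specific markers, SAG1 lay above background in all 6 arrays, between 5.54 and 5.77, and MF(ALPHA)1, which encodes α-factor, in 1 dN array and all 3 dA arrays. STE3, the receptor for a-factor, gave 5.27, 5.38 and 4.05 in dN, where 2 arrays were above background, and 4.41, 4.16 and 4.32 in dA, where none was. It did not pass with all arrays (adjusted p = 0.115) and was lower in dA without dN replicate 3 (limma, adjusted p = 7.31e-06). MF(ALPHA)1 signal was 4.23, 4.52 and 3.81 in dN and 5.40, 5.46 and 5.41 in dA, a rise by 1.24 on the log2 scale (limma, standard error 0.17, adjusted p = 0.000226).

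The dA arrays lay close together and the dN arrays did not. The median SD over genes was 0.0774 log2 in dA and 0.18 in dN, and 0.0871 between dN replicates 1 and 2. The residual SD was 0.361 for dN replicate 3, 0.25 for dN replicate 2, 0.155 for dN replicate 1 and at most 0.107 for any dA array. In dN replicate 3 the ribosome biogenesis genes were high and the stress and phosphate genes low. What set that culture apart was not tested. Counts of genes called in dA against dN are given with all arrays and, in the same sentence or the next, without it. The 2-fold counts, the overlap with WA, and the difference test by direction or by list are given with all arrays only. A fit on the 6 arrays of dA and dN alone called 82 genes, 55 higher and 27 lower, and 53 of the 96 called genes that were followed by name were not called in it.

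With all arrays, 641 of 5449 genes (11.8%) differed between dA and dN at an adjusted p under 0.05, 322 higher (5.91%) and 319 lower (5.85%). Without dN replicate 3 the count was 1344 (24.7%), with 596 higher (10.9%) and 748 lower (13.7%). The fits shared 564 genes in the same direction, 292 higher and 272 lower. Most changes were small: 44 genes rose and 13 fell by 2-fold or more in the deposited values, and the median over all genes was -0.02. These counts include genes at background in either strain or both, among them YOR387C, FRE4, CHA1, PEX21, TKL2 and GAC1. For such genes a fold of 2 is not established. The median by chromosome lay between -0.07 (VI) and 0.02 (XI). The largest rises among genes that met the naming rule were those of GPH1, CYC7, HXK1, SOL4 and YRO2, and the largest falls those of URA3, YOR387C, FRE4, YDR222W and YAR068W. YOR387C and FRE4 were at background in dA, so their rank rests on deposited values. Their bounds were at least 1.07-fold and 1.95-fold lower.

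**Figure D1:**
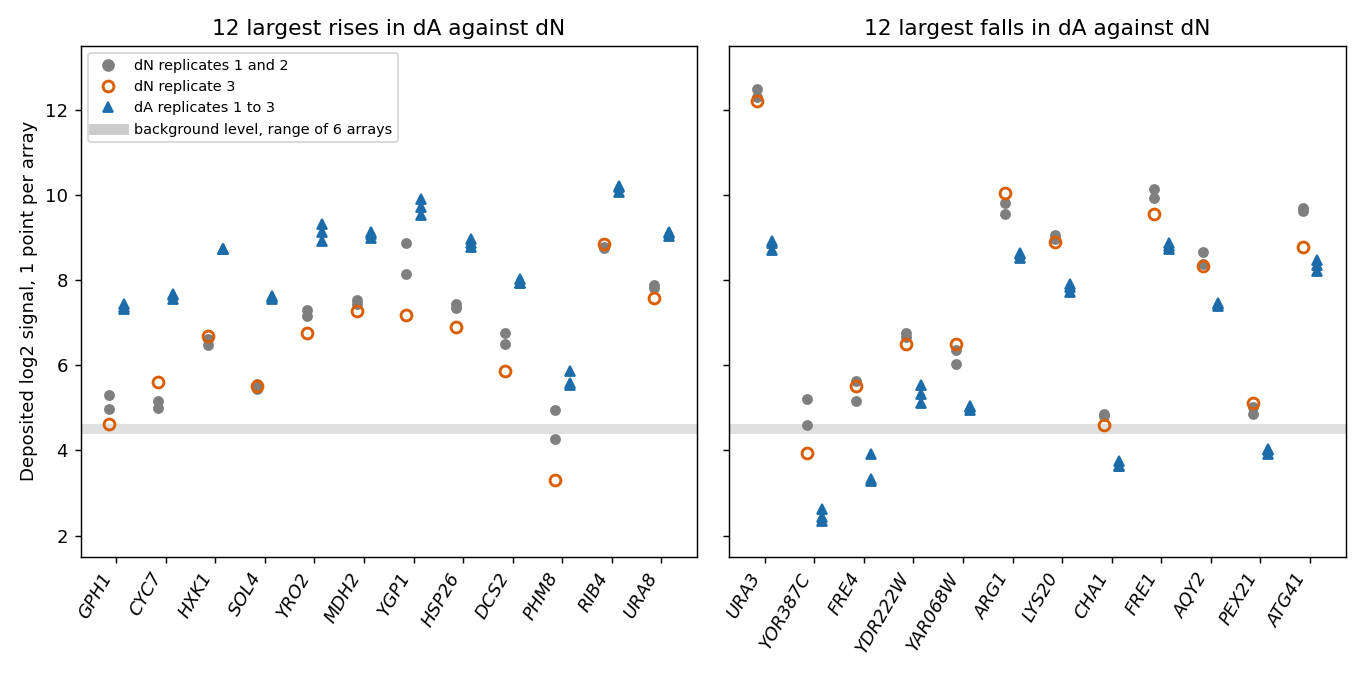
Deposited log2 signal (y axis) of the 12 genes that rose and the 12 that fell the most in dA against dN, among genes called with and without dN replicate 3 whose arrays did not overlap and whose mean in the higher strain was above background, 1 point per array. In each gene shown the dA triangles do not overlap the dN circles, and FRE4, CHA1, PEX21 and YOR387C lie below the grey background band in the 3 dA arrays.

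The storage carbohydrate genes that changed all rose. Of 12 genes for glycogen synthesis and breakdown, the test called 7 higher and 0 lower and left 5 uncalled, at a median of 0.59 against -0.02 over all genes, and the count without dN replicate 3 was also 7. GPH1, glycogen phosphorylase, gave 4.97, 5.29 and 4.62 in dN and 7.33, 7.36 and 7.43 in dA. All 3 dA arrays lay above all dN arrays, a 5.34-fold rise. GLC3, the branching enzyme, gave 7.09, 7.36 and 6.54 in dN and 8.01, 8.06 and 8.08 in dA (2.08-fold, limma, adjusted p = 0.000346). Both glycogen synthases rose, GSY2 by 0.96 (adjusted p = 0.00158) and GSY1 by 0.48 (adjusted p = 0.00822), as did GDB1, the debranching enzyme, by 0.65 (adjusted p = 0.00144). GAC1 and GIP2, subunits that target protein phosphatase 1 to glycogen synthase, passed the test with all 6 arrays at background, so no fold is given. Synthesis and breakdown genes moved in the same direction. In RNA from a whole culture, a change in every cell and a change in some of the cells cannot be told apart. PGM2, phosphoglucomutase, which feeds both glycogen and trehalose, rose from 5.75, 5.73 and 5.47 to 6.87, 6.80 and 6.74 (2.23-fold, adjusted p = 4.95e-06).

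Of 7 trehalose genes, 2 were higher with all arrays and without dN replicate 3. These were TSL1, a regulatory subunit of the synthase, at 1.13 (adjusted p = 0.000595), and TPS3, its partner subunit, at 0.33 (adjusted p = 0.016). The catalytic subunits did not pass. TPS1 gave 9.25, 9.38 and 8.39 in dN and 9.41, 9.38 and 9.40 in dA, and its difference of 0.39 came down to 0.08 without dN replicate 3. TPS2 went from 0.42 to 0.10 in the same way.

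Sugar uptake and the first steps of glucose use moved in part. HXK1, the hexokinase that yeast keeps low on high glucose, gave 6.48, 6.62 and 6.69 in dN and 8.73 in each dA array. This is a 4.38-fold rise with no overlap. GLK1, glucokinase, rose 2.14-fold, from 9.19, 9.51 and 8.41 to 10.16, 10.11 and 10.12. Of 20 glycolysis and fermentation genes, 7 were higher and none lower (8 and 1 without dN replicate 3). PYK2, the pyruvate kinase isoform of low glycolytic flux, rose by 0.65 (adjusted p = 0.0035), and ADH1, the main alcohol dehydrogenase of fermentation, by 0.76 (adjusted p = 2.34e-05). GLK1 and PYK2 were lower in dN than in WN, by 1.06 and 0.68 (adjusted p = 0.0014 and 0.00106). Neither was called in dA against WN (adjusted p = 0.904 and 0.846). HXK1 and ADH1 were higher in dA than in WN, by 1.42 and 0.66 (adjusted p = 9.38e-05 and 1.32e-05).

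Of 19 genes for hexose transport and its regulation, 4 were higher with all arrays, and 6 were higher and 3 lower without dN replicate 3. HXT7, a high-affinity glucose transporter, gave 7.59, 7.57 and 8.45 in dN and 9.30, 9.08 and 8.96 in dA. The dA arrays were above all dN arrays, though dN replicate 3 lay nearest to them (2.37-fold, adjusted p = 0.0025). MTH1, a repressor of transporter genes that acts when glucose is low, gave 5.10, 4.97 and 5.33 in dN and 6.10, 6.15 and 6.16 in dA (2.01-fold, adjusted p = 0.000681). SNF3, the high-affinity glucose sensor, rose by 0.38 (adjusted p = 0.0184). HXT1, the low-affinity transporter of high glucose, gave 8.96, 9.06 and 7.89 in dN and 8.07, 7.72 and 7.68 in dA. Its groups overlapped through dN replicate 3, and it passed the test only without that array (-1.19, adjusted p = 0.000948, against -0.81, adjusted p = 0.0662). Probes for HXT7 cannot tell it from its near-identical neighbour HXT6.

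Of 9 maltose genes, 3 were higher (4 without dN replicate 3). MAL11, an α-glucoside permease, was at background in dN at 4.05, 3.92 and 4.27 and reached 5.17, 4.93 and 4.95 in dA, at least 1.43-fold higher (adjusted p = 0.00118). MAL31, a maltose permease, rose by 0.58 (adjusted p = 0.00301) and MAL32, a maltase, by 0.84 (adjusted p = 0.00443). The probes for MAL31 and MAL32 may also detect their copies at other MAL loci.

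With all arrays, 23.1% of the pentose phosphate genes and 13.3% of the gluconeogenic and glyoxylate genes were called, against 11.8% over all genes. SOL4, a 6-phosphogluconolactonase, gave 5.44, 5.56 and 5.50 in dN and 7.59, 7.62 and 7.56 in dA (4.25-fold, adjusted p = 2.06e-08). Its paralogue SOL3 fell by 0.22 (adjusted p = 0.0241). TKL2, a transketolase, was at background in dN at 3.84, 4.07 and 3.41 and reached 4.77, 4.91 and 4.88 in dA, at least 1.27-fold higher (adjusted p = 0.000114). Of the 13 pentose phosphate genes, 2 were higher and 1 lower (2 and 2 without dN replicate 3). MDH2, the cytosolic malate dehydrogenase of gluconeogenesis, gave 7.44, 7.54 and 7.26 in dN and 9.13, 9.09 and 8.99 in dA. It rose 3.15-fold (adjusted p = 4.77e-08) on a list of 15 gluconeogenic and glyoxylate genes of which 1 other rose with all arrays, and 4 were lower without dN replicate 3.

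Among chaperones outside the ER, the called genes all rose. Of 26 Hsf1 chaperone genes, 10 were higher and none lower with all arrays, and 11 were higher and none lower without dN replicate 3. HSP26, a small heat shock protein that holds unfolded proteins, gave 7.34, 7.43 and 6.90 in dN and 8.96, 8.88 and 8.77 in dA (3.12-fold, adjusted p = 2.03e-05). HSP78, a mitochondrial disaggregase, gave 8.26, 8.19 and 7.93 in dN and 8.90, 8.97 and 9.01 in dA (1.78-fold, adjusted p = 3.94e-05). In both genes every dA array lay above every dN array. HSP104, the cytosolic disaggregase, rose by 0.79 (adjusted p = 0.000995), HSP42, another small heat shock protein, by 1.27 (adjusted p = 0.00218) and HSP82, an Hsp90 chaperone, by 0.61 (adjusted p = 0.00388). SSA4, a stress-induced Hsp70, gave 7.27, 6.96 and 6.17 in dN and 7.49, 7.59 and 7.62 in dA, and its rise of 0.77 (adjusted p = 0.017) was 0.45 (adjusted p = 0.00842) without dN replicate 3.

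In the list of 32 stress genes under Msn2 and Msn4, the test called 18 higher and 0 lower and left 14 uncalled, at a median of 0.75. Without dN replicate 3, 17 were higher and 2 lower, with a median of 0.51. That array lay below the other dN arrays in this list by a median of 0.86, while the 3 dA arrays lay above them by medians of 0.44, 0.53 and 0.49. HSP12, a membrane-protecting hydrophilin, gave 10.23, 10.73 and 9.68 in dN and 11.39, 11.36 and 11.35 in dA (2.23-fold, adjusted p = 0.000924). SPI1, a cell wall protein, rose 2.36-fold (adjusted p = 0.000203) and YGP1, a secreted glycoprotein of nutrient limitation, 3.13-fold (adjusted p = 0.00117). CTT1, cytosolic catalase and a classic member of the list, gave 5.38, 5.83 and 4.70 in dN and 5.52, 5.55 and 5.53 in dA, so the groups overlapped and the difference of 0.23 did not pass (adjusted p = 0.59). NQM1, a transaldolase isoform, gave 8.26, 9.23 and 5.53 in dN and 6.80, 7.39 and 7.23 in dA. It was one of the 2 called lower without dN replicate 3 (-1.6, adjusted p = 0.0103).

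Outside the lists, YRO2, a stress-inducible gene for a membrane protein related to Hsp30, gave 7.15, 7.29 and 6.76 in dN and 9.32, 9.14 and 8.91 in dA (4.16-fold, adjusted p = 4.77e-08). DCS2, an inhibitor of the mRNA decapping scavenger, rose 3.01-fold (adjusted p = 1.94e-05). RIB4, lumazine synthase of riboflavin synthesis, gave 8.79, 8.74 and 8.86 in dN and 10.20, 10.18 and 10.07 in dA, a 2.56-fold rise (adjusted p = 2.06e-08). PHM8, a nucleotide phosphatase gene, gave 4.28, 4.96 and 3.30 in dN and 5.53, 5.59 and 5.88 in dA, with 2 dN arrays at background.

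With all arrays, 8.82% of the respiratory chain and ATP synthase genes were called, against 11.8% over all genes. The share was 21.1% for oxygen-regulated genes and 25% for tricarboxylic acid cycle genes. Among the genes named here the largest changes were in isoform genes. CYC7, the cytochrome c isoform of low oxygen and stress, gave 5.16, 4.99 and 5.60 in dN and 7.56, 7.64 and 7.66 in dA, with no overlap. COX5B, the hypoxic subunit of cytochrome oxidase, gave 5.17, 5.53 and 4.80 in dN and 5.87, 5.84 and 5.85 in dA (1.6-fold, adjusted p = 0.00227). These 2 genes and NDI1, the internal NADH dehydrogenase (0.41, adjusted p = 0.00381), were the 3 of 34 respiratory chain and ATP synthase genes called higher with all arrays (4 without dN replicate 3). Of 19 oxygen-regulated genes, 4 were higher with all arrays and 7 without dN replicate 3. HEM13, a heme synthesis gene induced without oxygen, gave 6.23, 5.96 and 7.20 in dN and 6.59, 6.72 and 6.63 in dA, and its difference was 0.18 with all arrays (adjusted p = 0.705) and 0.55 without dN replicate 3 (adjusted p = 0.0442). Of 16 tricarboxylic acid cycle genes, 4 were higher (4 higher and 1 lower without dN replicate 3), those with all arrays by small amounts such as 0.30 for SDH3, a succinate dehydrogenase subunit (adjusted p = 0.00413).

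**Figure D2:**
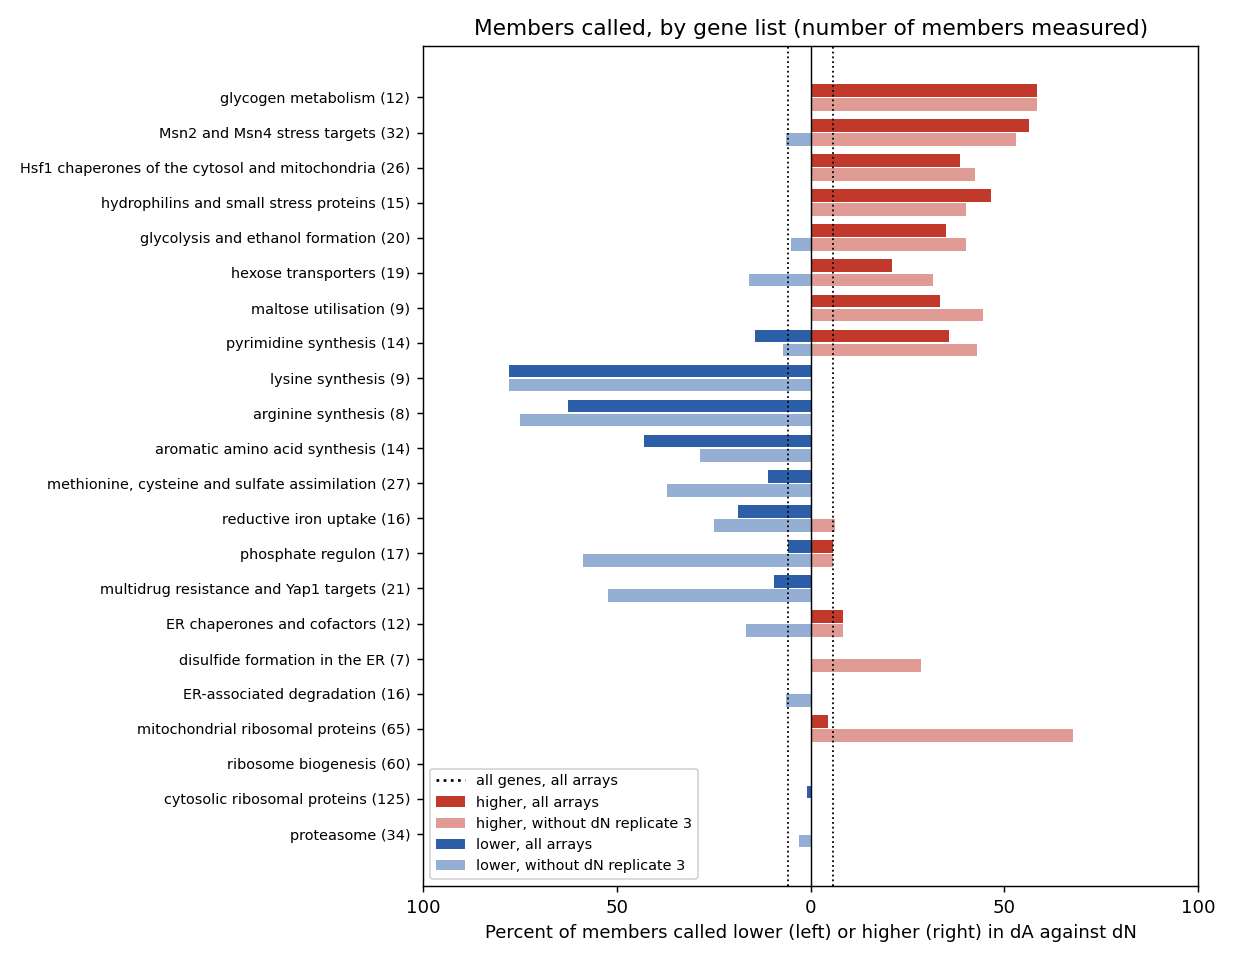
Percent of the measured members of 22 gene lists called lower (bars to the left) or higher (bars to the right) in dA against dN, with all arrays (dark) and without dN replicate 3 (pale); dotted lines give the share over all genes with all arrays, 5.91% higher and 5.85% lower. For the pale bars the share over all genes was 10.9% higher and 13.7% lower, for which no line is drawn. Glycogen and lysine bars keep their length without that array, whereas phosphate, multidrug and mitochondrial ribosomal bars appear almost wholly without it.

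URA3 fell while 5 other pyrimidine genes rose. URA3 encodes orotidine-5'-phosphate decarboxylase and is the selection marker of the plasmid, and the array cannot separate plasmid transcripts from those of the mutant chromosomal gene. Its signal was 12.30, 12.49 and 12.20 in dN and 8.71, 8.86 and 8.91 in dA. URA1, dihydroorotate dehydrogenase, gave 9.68, 9.57 and 9.82 in dN and 10.85, 10.85 and 10.82 in dA (2.22-fold, adjusted p = 5.8e-07). URA4, dihydroorotase, rose by 0.65 (adjusted p = 0.000255) and URA2, which catalyses the first steps of the pathway, by 0.67 (adjusted p = 3.8e-05). These 3 enzymes act upstream of Ura3. Downstream of it, URA8, a CTP synthase, gave 7.89, 7.81 and 7.59 in dN and 9.12, 9.11 and 9.04 in dA (2.51-fold, adjusted p = 4.77e-08). URA10, an orotate phosphoribosyltransferase that also acts upstream of Ura3, rose by 0.68 (adjusted p = 0.0262). URA6, the UMP kinase that follows Ura3, fell with it, from 8.61, 8.47 and 8.89 in dN to 8.36, 8.33 and 8.41 in dA (-0.29, adjusted p = 0.0407), and did not pass without dN replicate 3 (-0.18, adjusted p = 0.0821). Of the 14 pyrimidine genes, 5 were higher, 2 lower and 7 not called (6 higher and 1 lower without dN replicate 3). PPR1, the activator that senses pathway intermediates, did not pass the test (-0.30, adjusted p = 0.129).

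The amino acid synthesis genes that changed all fell, and the lysine pathway had the largest share of calls. Of these genes, LYS20, LYS2, ARG1, HOM2 and TRP3 were higher in dN than in WN, by 1.11, 0.83, 1.07, 0.62 and 0.38. None of them was called in dA against WN (adjusted p = 0.851, 0.190, 0.544, 0.722 and 0.965). LYS9, LYS21, ORT1, LEU1 and ARO9 were lower in dA than in WN, by 0.33, 0.36, 0.65, 0.61 and 0.74. ARG3 was higher in dA than in WN, by 0.36. Of 9 lysine genes, 7 were lower and none was higher with all arrays, and 7 again without dN replicate 3, where LYS5 passed and LYS12 did not, and the median was -0.55 with all arrays and -0.61 without. LYS20, a homocitrate synthase that commits carbon to lysine, gave 9.05, 8.95 and 8.90 in dN and 7.72, 7.83 and 7.92 in dA (2.21-fold lower, adjusted p = 7.96e-05). LYS9, the saccharopine dehydrogenase near the end of the pathway, gave 9.04, 8.99 and 8.97 in dN and 8.18, 8.29 and 8.26 in dA (1.69-fold lower, adjusted p = 5.44e-06). All 3 dA arrays lay below all 3 dN arrays in both genes. LYS2, α-aminoadipate reductase, fell by 0.69 (adjusted p = 4.68e-05), the second homocitrate synthase gene LYS21 by 0.59 (adjusted p = 0.000414) and LYS1, the last enzyme, by 0.55 (adjusted p = 0.0135). LYS4 and LYS12, which encode middle steps, fell by 0.47 and 0.37 (adjusted p = 0.0278 and 0.0429). LYS14, the activator of the pathway, gave 5.74, 5.56 and 6.17 in dN and 5.63, 5.92 and 5.85 in dA and did not pass (-0.03, adjusted p = 0.923). LYS5, which activates the Lys2 enzyme, gave -0.29 with all arrays (adjusted p = 0.0567) and -0.38 without dN replicate 3 (adjusted p = 0.00636).

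Of 8 arginine genes, 5 were lower with all arrays and 6 without dN replicate 3. ARG1, argininosuccinate synthetase, gave 9.81, 9.56 and 10.03 in dN and 8.53, 8.62 and 8.64 in dA (2.31-fold lower, adjusted p = 0.00016). ARG3, ornithine carbamoyltransferase, gave 7.87, 7.70 and 8.07 in dN and 7.04, 7.02 and 7.21 in dA (1.73-fold lower, adjusted p = 0.000255). ORT1, the mitochondrial ornithine carrier, fell by 0.62 (adjusted p = 5.19e-05), while ARG4, argininosuccinate lyase, did not pass with all arrays (-0.14, adjusted p = 0.127). Of 14 aromatic amino acid genes, 6 were lower (4 without dN replicate 3), among them TRP3 at -0.38 (adjusted p = 0.000862) and ARO9, an aminotransferase, at -0.69 (adjusted p = 0.00622). Of 11 branched-chain genes, 2 were lower (4 without dN replicate 3), LEU1 by 0.48 (adjusted p = 0.00132), and HIS5 was the 1 of 7 histidine genes called lower with all arrays (-0.31, adjusted p = 0.00717), against 2 without dN replicate 3. Of 27 methionine, cysteine and sulfate genes, 3 were lower with all arrays and 10 without dN replicate 3, and none was higher. HOM2, on the common route to methionine and threonine, fell by 0.58 (adjusted p = 0.000375). CHA1, a serine and threonine deaminase that catabolises amino acids, gave 4.80, 4.86 and 4.60 in dN and lay at background in dA at 3.63, 3.63 and 3.75, at least 1.21-fold lower (adjusted p = 0.000156).

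**Figure D3:**
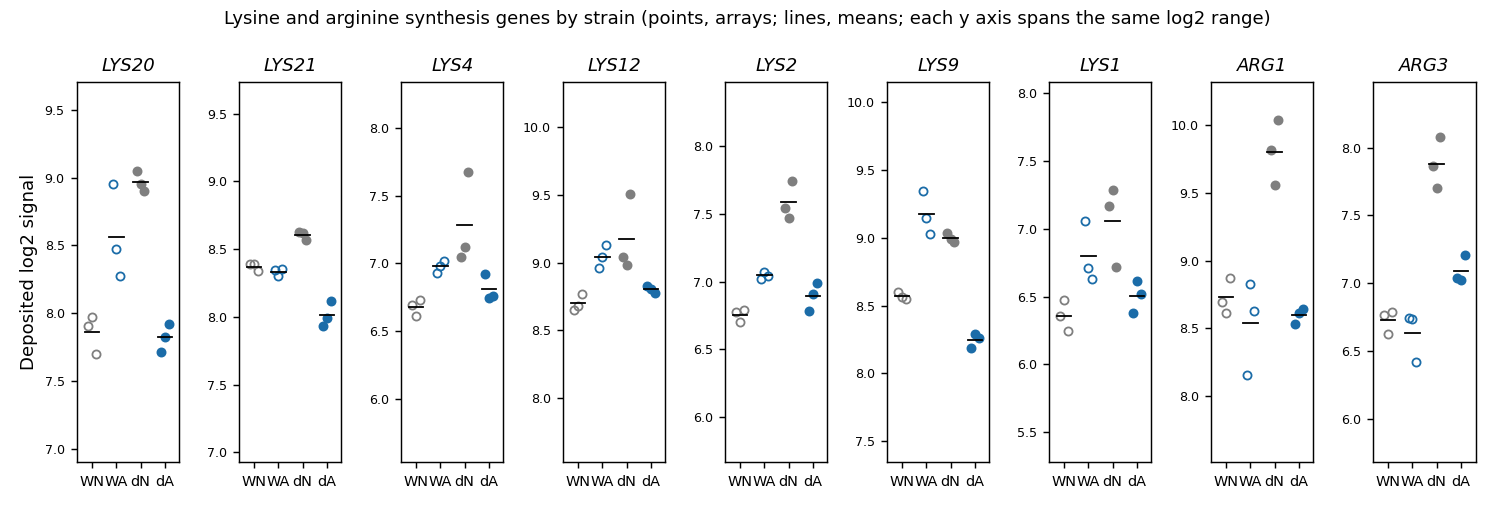
Deposited log2 signal (y axis, same span in each panel) of 7 lysine and 2 arginine synthesis genes in WN, WA, dN and dA, with 1 point per array and lines at the means of 3 arrays. In LYS20 the dN arrays (8.90 to 9.05) lie above the dA arrays (7.72 to 7.92), and the WA arrays (8.28 to 8.95) above the WN arrays (7.70 to 7.97).

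LYS20, LYS9 and LYS2 moved the other way when α-amylase was produced with HAC1 intact. LYS20 gave 7.91, 7.97 and 7.70 in WN and 8.95, 8.47 and 8.28 in WA, a change of 0.71 against -1.15 in the deletion background. The difference between these changes was -1.85 (limma, standard error 0.19, adjusted p = 0.000158). LYS9 gave 8.60, 8.56 and 8.55 in WN and 9.34, 9.14 and 9.03 in WA, and its changes differed by -1.36 (adjusted p = 3.15e-06). In the 9 genes, the difference was called for 6 (LYS20, LYS9, LYS2, LYS21, LYS1 and LYS12), all toward lower in the deletion background, and the median change in WA against WN was 0.30. The dA arrays of LYS20 overlapped the WN arrays, while the dN arrays overlapped the WA arrays. In LYS9 the order was different, with all dA arrays below all WN arrays and the dN arrays above them.

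Over all genes, the difference from WA against WN was called for 73 (1.34%), 27 more positive and 46 more negative in the deletion background, and for 400 (7.34%) without dN replicate 3. At an unadjusted p under 0.05 it was 713. The change of URA3 was -1.98 in WA and -3.50 in dA (difference -1.53, standard error 0.12, adjusted p = 8.09e-06). GPH1 rose further in dA than in WA (2.42 against 1.44, adjusted p of the difference 0.0256), and SOL4 too (2.09 against 1.39, adjusted p = 0.0499). ENO1, enolase, rose by 0.63 in dA and gave 0.13 in WA (adjusted p of the difference 0.0166). It was lower in dN than in WN by 0.61 (adjusted p = 8.02e-06) and was not called in dA against WN (adjusted p = 0.851). MF(ALPHA)1 gave a smaller rise in the deposited values, 1.24 against 2.56 (adjusted p of the difference 0.0134). It was above background in only 1 dN array, so the size of its rise in dA is not established. YDR222W, a gene of unknown function, gave 6.75, 6.67 and 6.51 in dN and 5.11, 5.54 and 5.32 in dA, with a change of 0.12 in WA (adjusted p of the difference 0.00044). It was higher in dN than in WN by 1.21 (adjusted p = 2.78e-06) and was not called in dA against WN (adjusted p = 0.518). YLL066W-B, a small open reading frame, passed the test of the difference (adjusted p = 0.00044), with 5.36, 5.57 and 5.30 in WA but all WN arrays and 5 of the 6 dN and dA arrays at background, so no size is given.

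The changes in both backgrounds overlapped in part, and they share no array. Of the genes higher in dA, 99 were among the 177 higher in WA (3.25% of genes). That is 30.7% of the dA list and 55.9% of the WA list. Of those lower, 37 were shared with the 84 lower in WA (1.54%), which is 11.6% of the dA list and 44.0% of the WA list. Across the 5449 genes the log2 changes correlated with r = 0.507, and with r = 0.51 without dN replicate 3. Genes are not independent replicates. A total of 9 genes were called in opposite directions, and 7 of them, LYS20, LYS9 and LYS2 among these, were higher in WA and lower in dA.

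In reductive iron uptake, 2 reductase genes and the activator fell. FRE1, the main ferric and cupric reductase, gave 10.15, 9.93 and 9.56 in dN and 8.88, 8.73 and 8.81 in dA, without overlap (2.1-fold lower, adjusted p = 0.00894). FRE4, a siderophore reductase, gave 5.63, 5.17 and 5.51 in dN and 3.91, 3.29 and 3.32 in dA, where it was at background. AFT1, the iron-responsive activator, fell by 0.30 (adjusted p = 0.0413), and these were the 3 of 16 reductive uptake genes called lower with all arrays, against 4 lower and 1 higher without dN replicate 3. FET3, the multicopper oxidase, gave 7.69, 7.54 and 9.40 in dN and 8.58, 7.55 and 7.68 in dA. Its groups overlapped, and neither it nor FTR1, the permease, passed (adjusted p = 0.735 and 0.285). The changes of FRE1, FRE4 and AFT1 each differed from those in WA (adjusted p of the difference 0.0423, 0.0166 and 0.0431). FRE1 and AFT1 were higher in dN than in WN, by 1.45 and 0.48 (adjusted p = 0.000389 and 0.00122). In dA against WN neither was called (adjusted p = 0.225 and 0.129). FRE4 was not called in dN against WN (adjusted p = 0.561) and was lower in dA than in WN (adjusted p = 9.54e-05).

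The other genes with the largest falls had varied roles. YAR068W, which has a near-identical copy in another subtelomere, gave 6.36, 6.04 and 6.50 in dN and 5.03, 5.05 and 4.95 in dA (2.45-fold lower, adjusted p = 1.5e-06). AQY2, a water channel gene, fell 2.04-fold (adjusted p = 9.43e-05). ATG41, an autophagy gene, gave 9.62, 9.69 and 8.78 in dN and 8.35, 8.21 and 8.48 in dA (2.02-fold lower, adjusted p = 0.0104). AQY2 was higher in dN than in WN by 1.11 (adjusted p = 1e-05) and was not called in dA against WN (adjusted p = 0.634). YAR068W and ATG41 were lower in dA than in WN, by 0.71 and 1.16 (adjusted p = 0.000109 and 0.00121). PEX21, a peroxisomal import receptor subunit, gave 4.86, 5.02 and 5.10 in dN and lay at background in dA, at least 1.43-fold lower (adjusted p = 0.000203). YOR387C, an uncharacterised gene, gave 4.59, 5.21 and 3.94 in dN, with 1 array above background, and lay at background in dA at 2.63, 2.45 and 2.34, at least 1.07-fold lower (adjusted p = 0.018). MEP1, an ammonium permease, fell by 0.74 (adjusted p = 0.000249) and was 1 of 3 nitrogen-regulated genes of 23 called lower, with 1 called higher. Without dN replicate 3, 10 of the 23 were lower and 3 higher.

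With all arrays, 8.33% of the 12 ER chaperone genes were called, against 11.8% over all genes. ER lists of this size are too short to set such counts apart from that share. KAR2, the ER Hsp70 and a classic Hac1 target, gave 10.57, 10.47 and 10.54 in dN and 10.96, 10.71 and 10.74 in dA. Each dA array was above each dN array, and the rise was 1.21-fold (adjusted p = 0.0309). The other 11 ER chaperone genes did not pass with all arrays, and without dN replicate 3 FPR2, an ER prolyl isomerase, and SIL1, the Kar2 exchange factor, were lower by 0.55 and 0.30 (adjusted p = 0.00144 and 0.0424). None of 7 disulfide genes passed with all arrays. EUG1, a protein disulfide isomerase, gave 6.22, 6.28 and 6.72 in dN and 6.83, 6.76 and 6.71 in dA, where dN replicate 3 lay among the dA arrays. It came to 0.37 (adjusted p = 0.0521), and to 0.52 (adjusted p = 0.00085) without that array. MPD1, another isomerase, also passed without it (0.37, adjusted p = 0.0063). The change of EUG1 differed from that in WA, which was -0.57 (adjusted p of the difference 0.0117). PDI1 gave 11.19, 11.27 and 10.79 in dN and 11.22, 11.20 and 11.16 in dA (0.11, adjusted p = 0.523), and ERO1, the oxidase of the pathway, gave 0.20 (adjusted p = 0.343). None of 16 ER-associated degradation genes passed with all arrays, and 1 was lower without dN replicate 3. Of 19 COPII genes SFB2, a cargo adaptor, was the 1 called lower both ways (-0.47, adjusted p = 0.0064, with all arrays). The proteasome list of 34 gave no call with all arrays and 1 lower without dN replicate 3.

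In several gene groups dA lay between dN replicate 3 and the other dN arrays. This order held for 1078 of the 5449 genes, and 1154 genes changed the sign of their difference when that array was left out. In ribosome biogenesis (60 genes) the median against dN replicates 1 and 2 was 0.83 for dN replicate 3 and 0.14, 0.18 and 0.19 for the dA arrays. No member was called with either set of arrays, and the list median turned from -0.10 to 0.16. Of 65 mitochondrial ribosomal protein genes, 3 were higher with all arrays and 44 without dN replicate 3. MRPL3 gave 8.31, 8.31 and 8.77 in dN and 8.98, 8.88 and 8.90 in dA and passed both ways, by 0.46 (adjusted p = 0.0136) and 0.61 (adjusted p = 0.000127). Of 125 cytosolic ribosomal protein genes, 1 was lower with all arrays and none without.

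Phosphate genes showed the opposite order. PHO89, a phosphate transporter, gave 9.81, 10.07 and 6.08 in dN and 8.49, 7.42 and 8.0 in dA. SPL2, a regulator of low-affinity uptake, gave 5.54, 5.76 and 2.30 in dN and 3.99, 2.86 and 4.38 in dA. For SPL2, dN replicate 3 and every dA array were at background, so the order among those arrays cannot be read. Of the 17 genes of the phosphate regulon, 1 was higher and 1 lower with all arrays, and 1 was higher and 10 lower without dN replicate 3. PHO84, the high-affinity transporter, had a difference of 0.12 with all arrays and -1.03 without that array, and passed neither test (adjusted p = 0.941 and 0.229). Of 21 multidrug and Yap1 genes, 2 were lower with all arrays and 11 without. Here the dA arrays did not lie between, and the list median was -0.24 with all arrays and -0.32 without. Of 26 cyclin and cell cycle genes, 3 were higher and 1 lower with all arrays, and 13 and 2 without. FAR1, an inhibitor of G1 cyclins, gave 5.12, 4.83 and 6.84 in dN and 6.18, 6.17 and 6.25 in dA.

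**Figure D4:**
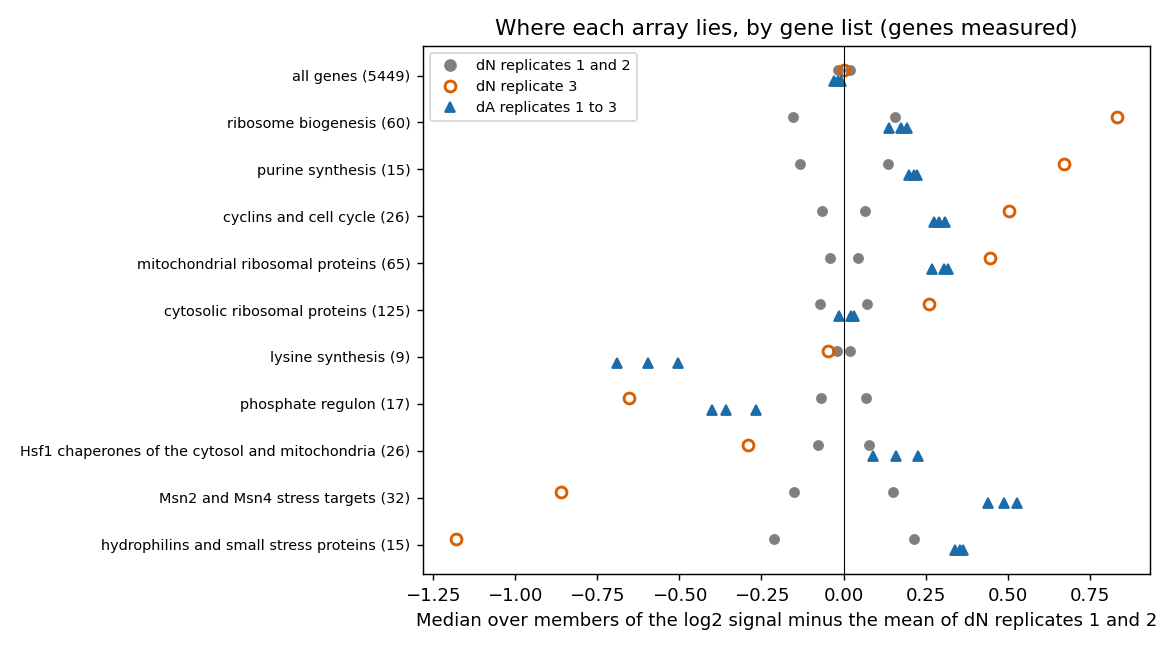
Median over the members of each gene list of the log2 signal minus the mean of dN replicates 1 and 2 (x axis), 1 point per array; the points of dN replicates 1 and 2 mirror each other by construction. For ribosome biogenesis dN replicate 3 lies at 0.83 and for Msn2 and Msn4 targets at -0.86, while the dA arrays stay within 0.14 to 0.19 and 0.44 to 0.53.

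**Figure D5:**
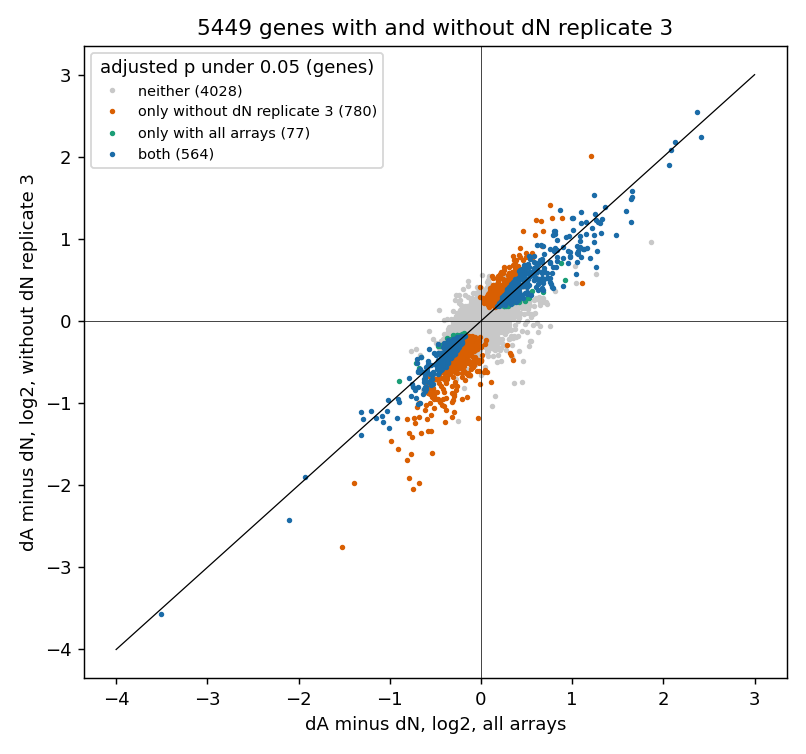
Log2 difference dA minus dN of 5449 genes with all arrays (x axis) and without dN replicate 3 (y axis), coloured by the fit in which a gene was called; the line marks equal values. A total of 564 genes were called in both fits, and 780 without that array alone.

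Cell wall and mating genes added a few changes that held both ways. TIP1, a cell wall mannoprotein, gave 8.75, 8.58 and 8.96 in dN and 9.92, 9.83 and 9.82 in dA (2.14-fold, adjusted p = 0.000595), and PIR1, another wall protein, rose by 0.58 (adjusted p = 0.00179). Of 38 wall genes, 3 were higher with all arrays, and 10 were higher and 4 lower without dN replicate 3. DSE4, a daughter-cell glucanase, passed only in the second case (1.26, adjusted p = 0.000333). MFA2, a pheromone gene, gave 8.69, 8.62 and 9.44 in dN and 9.75, 9.70 and 9.67 in dA (1.73-fold, adjusted p = 0.00447), and AGA1, the anchor of a-agglutinin, fell by 0.44 (adjusted p = 0.00141). AGA1 changed by 0.28 in WA, and the difference between the changes was called (adjusted p = 0.003).

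Against the other secreting strain without HAC1, dA differed in few genes. In dA against dI, 54 genes were called (0.991%), 15 higher and 39 lower. URA3 was lower in dA than in dI, whose mean was 10.02, by 1.20 (limma, adjusted p = 3.9e-06). PUT4, the proline permease, had a mean of 5.76 in dI and gave 4.52, 4.46 and 4.48 in dA (-1.27, adjusted p = 0.00106), with 1 dA array above background. TKL2 had a mean of 5.84 in dI, above its 3 dA arrays (-0.99, adjusted p = 0.0027). YIL046W-A and SRT1, a dolichol synthesis gene, also passed the test, with all dA arrays at background, and no fold is given. YHR054C, a gene next to the CUP1 repeat, was lower by 0.76 (adjusted p = 0.0027). LYS9 and AGA1 were also lower in dA than in dI, by 0.37 and 0.53 (adjusted p = 0.0161 and 0.00275). LYS9 was the 1 of 9 lysine genes called. LYS20, LYS2 and ARG1 were not called in dA against dI (adjusted p = 0.541, 0.184 and 0.512). Each of them was lower in dI than in dN, by 0.94, 0.46 and 0.96 (adjusted p = 0.000385, 0.00152 and 0.00107). The leading rises did not separate the strains at this threshold: GPH1 differed by 0.54 (adjusted p = 0.084), CYC7 by 0.07 (adjusted p = 0.898) and HSP26 by -0.23 (adjusted p = 0.596).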

How the data were processed

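The authors hybridised RNA from 18 bioreactor cultures to Affymetrix Yeast Genome 2.0 arrays. The deposited log2 values were made by the authors from the perfect-match probes alone, by RMA background correction, then qspline normalization of the arrays to each other, then median polish. They are already normalized, so scanner data were not used here. Of 10928 probe sets, 5498 matched a current RefSeq gene, and where a gene had more than 1 (47 genes) the probe set of highest mean signal stood for it, leaving 5449 genes. A single linear model with 6 strain means took in the 18 arrays (limma 3.58.1, R 4.3.3), with empirical Bayes moderation and Benjamini-Hochberg adjustment over all genes, and genes were called at an adjusted p under 0.05. All p-values are from this test unless stated. No 2 arrays held identical values. For a single gene, exact permutation of 3 arrays and 3 reaches p = 0.1 at the lowest. Array number limits the precision. Probes at background in all arrays of a strain have a bound only, computed against the background level and written as at least N-fold. The members, gene lists and tests were chosen with earlier results of these data known. Named genes were HAC1, URA3, the 12 largest rises and falls called with and without dN replicate 3 with no overlap and signal above background, up to 4 members of each list with the smallest adjusted p plus defining members that did not pass, and the first 6 of each difference test. Other genes named, among them AGA1, EUG1, MPD1, FAR1, NQM1, DSE4 and the phosphate genes, were chosen after their values were seen. Sequences were not used here.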

Additional observations from a re-analysis of the deposited data

Results flagged for a closer look

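In 29 of the genes named, the change from empty vector to α-amylase differed between the deletion and the HAC1 background by the limma test of the difference itself, and these values are that difference on the log2 scale, dA minus dN less WA minus WN. The lysine genes gave -1.85 for LYS20, -1.36 for LYS9, -0.99 for LYS1, -0.98 for LYS2, -0.72 for LYS12 and -0.55 for LYS21. The arginine genes gave -1.01 for ARG1 and -0.70 for ARG3. Iron genes gave -1.85 for FRE4, -1.47 for FRE1, -0.55 for AFT1 and -0.74 for ISU2, a scaffold gene of iron-sulfur cluster assembly. Nitrogen genes gave -1.05 for CHA1, -0.98 for MEP1 and -0.95 for PUT4. Mating genes gave -1.32 for MF(ALPHA)1 and -0.73 for AGA1, and the plasmid marker URA3 gave -1.53. PEX21 gave -1.0, YAR068W -1.07, YDR222W -1.43 and YLL066W-B -2.07. Differences toward higher in the deletion background were 0.98 for GPH1, 1.0 for GAC1, 0.74 for GSY1, 0.69 for SOL4, 0.77 for PYK2, 0.50 for ENO1 and 0.93 for EUG1. Some of these values rest on probes at background, so they are differences of deposited values and not sizes of a change. GAC1 was at background in every array of WN, WA, dN and dA, and CHA1 in those of WN, WA and dA. FRE4 was at background in dA, PEX21 in WA and dA, PUT4 in WN, and YLL066W-B in WN and dA. MF(ALPHA)1 was above background in only 1 dN array. No group had more than 3 arrays, so single outlying arrays were not tested.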

How the results depend on the processing

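The count of genes called in dA against dN, 641 with 322 higher and 319 lower, depended most on which arrays set the spread. Fitted on the dA and dN arrays alone it was 82 (55 higher, 27 lower), on those without dN replicate 3 it was 1280 (584 and 696), and with array quality weights 2302 (958 and 1344). Leaving out single arrays gave 333 to 1344 genes in all, 188 to 596 higher and 145 to 748 lower, the lowest without dA replicate 1 and the highest without dN replicate 3. An adjusted p under 0.01 left 250 genes (146 and 104). A change of 2-fold or more in the deposited values, genes at background included, left 57 (44 and 13). The difference from WA against WN gave 39 to 400 genes when single arrays were left out, against 73, and dA against dI gave 20 to 24, against 54. With replicate number as a block the count was 433 (253 higher, 180 lower). That fit also left out dN replicate 1, whose title has no number, and leaving out that array alone gave 414 (235 and 179). Deviations of same-numbered dA and dN arrays had correlations of 0.0360, 0.00881 and -0.0106. The first of these takes the unnumbered array as replicate 1. These values cannot settle whether the cultures were paired, and the main fit used no pairing. PHO84 turned from 0.12 to -1.12 with array quality weights and to -1.03 with the dA and dN arrays alone and no dN replicate 3. The cause of these shifts was not tested. Quantile normalization (657), median centring (634), leaving out dim genes (611), mean of probe sets (641), limma-trend (652) and robust moderation (634) kept the count within 1.5 times. These arrays carry no count depth, and genes at background have a bound only.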
